A study of Homo sapiens with 2 samples.

Results

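The 10 genes described here encode the cyclins, cyclin-dependent kinases (CDKs) and CDK inhibitors that govern the passage from G1 into S phase: the D cyclins CCND1, CCND2 and CCND3, the E cyclins CCNE1 and CCNE2, the kinases CDK2, CDK4 and CDK6, and the inhibitors CDKN1A (p21) and CDKN1B (p27). They were taken by name, and all 10 were found among 18377 genes measured. Each was read by 1 probe set that names no other gene, so 10 probe sets carry all the values of these genes. EBC1 is a human lung cancer cell line that depends on the receptor tyrosine kinase MET, whose gene it carries in many copies. EBC1-R was derived from it by growth in rising concentrations of a MET inhibitor, PHA-665752, and was then kept in medium with 3 µM inhibitor. The comparison of the resistant subline (1 array) with the parental line (1 array) addresses how the cells came to resist MET inhibition. Resistance, selection and the presence of the drug cannot be told apart, and EBC1-R is a single resistant line.

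Growth factor signals through the ERK pathway raise the D cyclins, which bind CDK4 or CDK6 and start the phosphorylation of RB. RB then releases the E2F transcription factors, which switch on the E cyclins and the genes of DNA replication. The E cyclins bind CDK2 and complete the step. The inhibitors p21 and p27 bind CDK2 complexes and block them. Several of these genes respond to growth signals in epithelial tumours, and CCND1 and CDK6 lie in regions that are gained in some of them.

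Levels are log2 intensities as deposited, and the difference of a gene is its level in EBC1-R less its level in EBC1, so a difference of -1 is a level 2-fold lower in EBC1-R. With 1 array in each group no value has a replicate error and no test between the lines was possible. The only measure of scatter at hand was the agreement between probe sets of the same gene. Over 376 genes with 879 probe sets and a mean level at or above the median of all genes, the SD of their differences was 0.16. It describes scatter within this pair of arrays and not between cultures. Genes below that median, as CCND2 and CCNE1 are, were left out of it. The deposited columns had medians of 6.73 and 6.71, and their sorted values differed by at most 0.17 at any rank. Probe sets differ in brightness, so a percentile given for a gene is the place of its probe set on the array and does not rank transcripts.

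Of the 10 genes, 8 were lower in EBC1-R, 1 was higher and 1 was equal. Over all genes measured 55.5% were lower. CCNE2 and CDKN1A stood apart with levels at least 2-fold lower in EBC1-R, which 0.887% of all genes reached, or 1.51% of the 9189 genes whose mean level was at or above the median of 7.28. None of the 10 was at least 2-fold higher, a size that 1.26% of all genes reached. At a threshold of 1.5-fold the same 2 genes were lower, against 3.16% of all genes, and again none was higher, against 4.41%. The median difference of the 10 genes was -0.30, or 1.23-fold lower, while the median of all genes was -0.03. In cell cultures a smaller share of cells in a given phase and less transcript in each cell cannot be told apart.

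**Figure D1:**
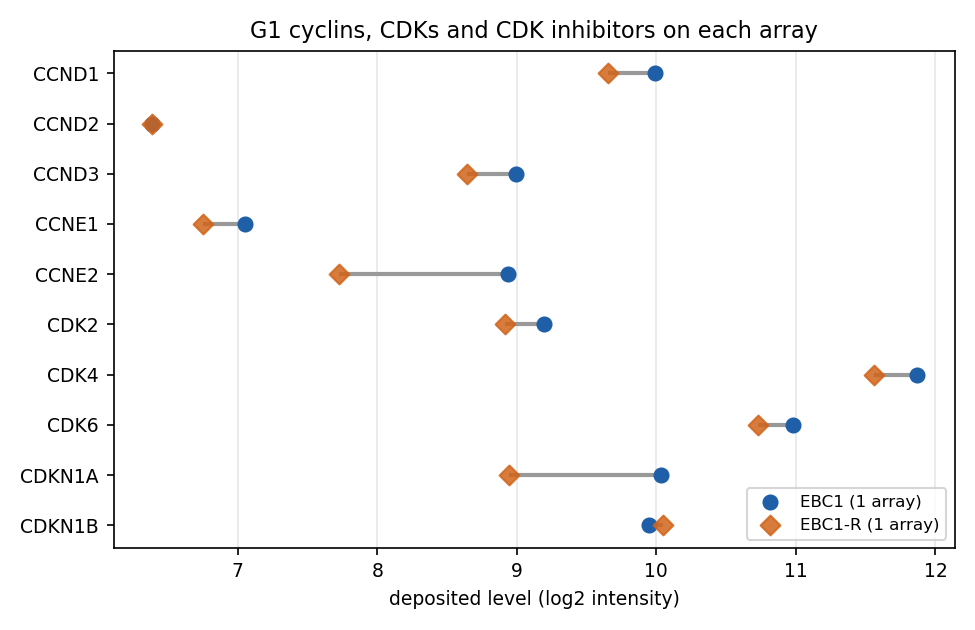
Level of each gene (log2 intensity, horizontal axis) on the EBC1 array (circles) and the EBC1-R array (diamonds), 1 array each, joined by a line. CCNE2 goes from 8.94 to 7.73 and CDKN1A from 10.03 to 8.94, while the symbols of CCND2 coincide at 6.38.

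The D cyclins link growth signals to the cell cycle. CCND1 was at 9.99 in EBC1 against 9.65 in EBC1-R, a difference of -0.34 or 1.27-fold lower. CCND3 was at 8.995 and 8.64, a difference of -0.35 or 1.28-fold lower. These differences lay 0.01 apart, well within the scatter between probe sets, so the order of CCND1 and CCND3 carries no information. Of all genes, 9.51% had a difference as low as that of CCND1 or lower, and 8.90% as low as that of CCND3 or lower. CCND2 had the same deposited value, 6.38, on both arrays. That level stood at the 33.5th percentile of genes in EBC1, and without detection calls it is not known whether it exceeds background. An exact tie was not confined to CCND2: 548 probe sets, 1.90% of the 28869 deposited, had identical values on both arrays. Their median level was 5.04, under that of CCND2, against 6.72 for all probe sets. The cause of these ties is not known. The zero difference of CCND2 is therefore not read as a measure of how constant the transcript was.

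The E cyclins, which activate CDK2 late in G1, differed from each other. CCNE2 was at 8.94 in EBC1 against 7.73 in EBC1-R, a difference of -1.21 or 2.32-fold lower. It moved from the 77.4th to the 57.1st percentile of genes, and 84 of the 18377 genes, itself included, had a difference as low or lower. Among genes with a mean level at or above the median, that share was 0.78%. CCNE1, its close relative with the same kinase partner, was at 7.06 and 6.75, a difference of -0.31 or 1.24-fold lower. The differences of CCNE2 and CCNE1 were 0.91 log2 units apart, several times the scatter between probe sets. CCNE1 had a mean level under the median of all genes, where that scatter was not measured. With the background subtracted on the linear scale the differences were -0.38 for CCNE1 and -1.31 for CCNE2. The RefSeq model of CCNE2 overlaps those of INTS8, at 7.44 and 8.14, and NDUFAF6, at 6.80 and 6.87. Both were higher in EBC1-R, opposite to CCNE2, and whether any probe lies in a shared stretch was not checked.

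The 3 kinases were lower by almost the same small amount. CDK4, which partners the D cyclins, was at 11.86 in EBC1 against 11.56 in EBC1-R, a difference of -0.30 or 1.23-fold lower. CDK6, the other D cyclin kinase, was at 10.98 and 10.73, a difference of -0.25 or 1.19-fold lower. CDK2, the kinase of the E cyclins, was at 9.20 and 8.92, a difference of -0.28 or 1.21-fold lower. The 3 differences spanned 0.05 log2 units, so their order is not distinguishable. The differences of CCND1, CCND3, CCNE1 and the kinases lay between -0.35 and -0.25. Each of these 6 differences alone was common: between 8.90% and 15.1% of all genes had a difference as low or lower. Among the 9189 genes with a mean level at or above the median, the shares were 13.3% to 19.8%.

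CDK4 overlaps TSPAN31, the adjacent gene, in the RefSeq table. TSPAN31 was at 9.80 in EBC1 against 10.63 in EBC1-R, 1.78-fold higher while CDK4 was lower, and whether their probes share sequence was not checked. The CDK4 promoter, chosen after the motif search, is shown because it carries 3 copies of the E-box CACGTG, the element bound by MYC with its partner MAX. MYC was at 11.09 in EBC1 against 10.79 in EBC1-R, a difference of -0.30. CCNE1, whose promoter held 0 E-boxes, had a difference of -0.31. Whether MYC has a part in these differences was not tested. MYC and, for the inhibitors, SP1 and KLF4 were chosen after their values were seen. The sequence gives the 250 bases before the RefSeq start in GRCh38.p14, chr12:57752311-57752560, minus strand, 5′ to 3′, with E-boxes and GC boxes (GGGCGG on either strand) in capitals.
CDK4: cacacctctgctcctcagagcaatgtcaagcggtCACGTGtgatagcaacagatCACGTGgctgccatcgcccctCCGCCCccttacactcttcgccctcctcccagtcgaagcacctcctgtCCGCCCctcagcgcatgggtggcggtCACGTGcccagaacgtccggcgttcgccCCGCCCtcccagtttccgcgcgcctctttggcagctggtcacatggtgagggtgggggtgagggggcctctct
The E-boxes begin 216, 196 and 101 bases before the start, and the GC boxes 175, 127 and 73 bases before it. Of 27305 promoters of this length in the table, 24, or 0.0879%, held at least 3 E-boxes, and 6.49% held at least 1. A match of letters is a description of the sequence and does not show binding.

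The inhibitors p21 and p27 differed from each other. CDKN1A was at 10.03 in EBC1 against 8.94 in EBC1-R, a difference of -1.09 or 2.13-fold lower. Its percentile among all genes went from 90.5 to 77.3, and 125 of the 18377 genes, itself included, had a difference as low or lower. Among genes with a mean level at or above the median, that share was 1.16%. CDKN1B was at 9.95 and 10.05, a difference of 0.10 or 1.07-fold higher, which is below the scatter between probe sets. Their differences were 1.19 log2 units apart. CDKN1A and CCNE2, at -1.09 and -1.21, differed by 0.12 from each other, less than the scatter, so their order is not distinguishable.

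**Figure D2:**
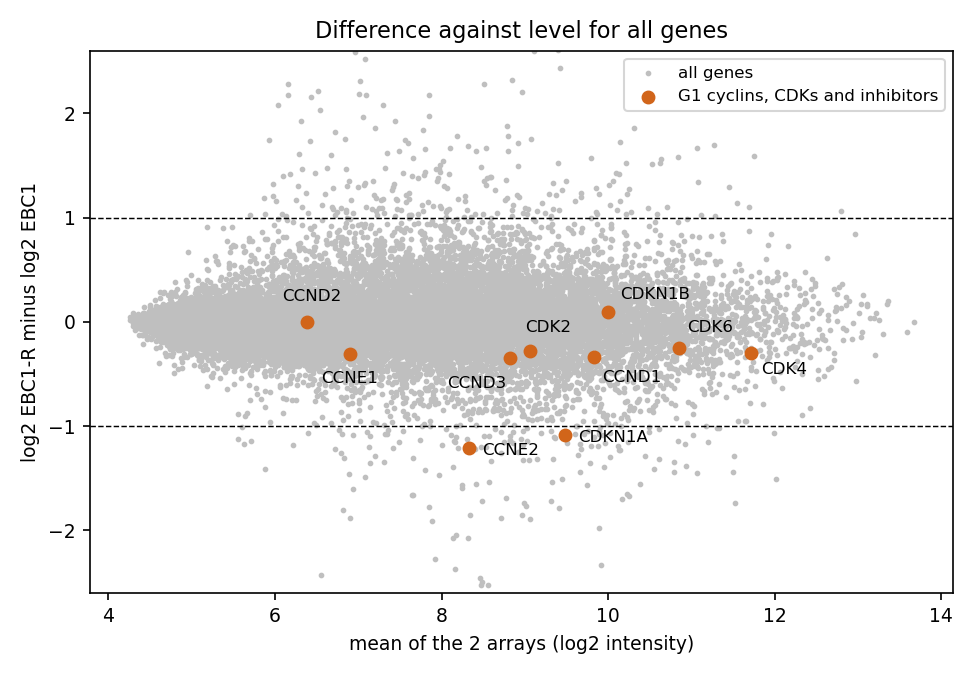
Difference (log2 EBC1-R minus log2 EBC1, vertical axis) against the mean level of both arrays (log2 intensity, horizontal axis) for all genes (grey) and the 10 genes of G1 control (orange), with dashed lines at 2-fold and 17 genes beyond the vertical range not shown. CCNE2 and CDKN1A lie below the lower line, and the other 8 lie between -0.35 and 0.10.

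The promoters of CDKN1A and CDKN1B are shown because these inhibitors differed in how far their levels moved. Both sequences are the 250 bases before the RefSeq start in GRCh38.p14, plus strand, 5′ to 3′. CDKN1A lies at chr6:36678464-36678713 and CDKN1B at chr12:12717118-12717367. Capitals mark GC boxes (GGGCGG, the element bound by SP1 and related KLF factors) and CCAAT boxes, each searched on both strands.
CDKN1A: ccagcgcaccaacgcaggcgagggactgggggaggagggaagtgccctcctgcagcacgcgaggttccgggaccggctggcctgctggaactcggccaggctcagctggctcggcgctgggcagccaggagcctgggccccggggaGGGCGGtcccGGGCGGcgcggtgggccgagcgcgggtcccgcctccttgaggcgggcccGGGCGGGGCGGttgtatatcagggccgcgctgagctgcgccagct
CDKN1B: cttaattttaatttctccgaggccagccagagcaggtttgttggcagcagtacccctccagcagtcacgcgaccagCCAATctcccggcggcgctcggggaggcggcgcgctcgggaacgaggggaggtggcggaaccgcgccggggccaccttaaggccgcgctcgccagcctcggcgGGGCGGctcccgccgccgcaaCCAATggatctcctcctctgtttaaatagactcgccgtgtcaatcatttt
CDKN1A held 4 GC boxes, which begin 104, 94, 45 and 40 bases before the start, the last pair sharing 1 base. CDKN1B held 1 GC box, 71 bases before the start, and 2 CCAAT boxes at 174 and 50 bases. CCNE1 held 7 GC boxes and CCND3 held 5, with differences of -0.31 and -0.35. A relation between GC boxes and the differences was not tested. At least 4 GC boxes were present in 7.82% of all promoters and at least 1 in 42.3%, while 10.0% had at least 2 CCAAT boxes. The CDKN1A stretch was 76.4% G and C and that of CDKN1B 64.4%, against a median of 58.0% over all promoters, and GC boxes are more frequent in sequence rich in G and C. Of the genes for these factors, SP1 was at 9.61 in EBC1 against 9.57 in EBC1-R, a difference of -0.04. KLF6 was at 9.73 and 8.79, 1.93-fold lower, and KLF4 was at 9.41 and 9.22, a difference of -0.19. The table held promoters for 6 of the 10 genes: CCND3, CCNE1, CDK4, CDK6, CDKN1A and CDKN1B. Each of the 6 held GGGCGG, and none held TGACTCA (AP-1, in 4.16% of all promoters), TGACGTCA (CRE, 1.77%), GTAAACA (FOXO, 2.98%), TATAAA (11.1%) or an E2F element (TTTGGCGC, TTTCCCGC, TTTGCCGC or TTTCGCGC, 2.79%).

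The other CDK inhibitors were lower too, but most of them were dim. Of 4 measured, all 4 were lower and none 2-fold, with a median difference of -0.44. CDKN2A (p16 and ARF) was at 6.54 in EBC1 against 5.99 in EBC1-R, CDKN2B (p15) at 6.87 and 6.40, and CDKN2D (p19) at 7.29 and 6.88. These 3, which block CDK4 and CDK6, had mean levels under the median of all genes. CDKN1C (p57), the relative of p21 and p27, was at 7.95 and 7.84, a difference of -0.11. It was the 1 gene of the list whose mean level reached that median, so without the dim genes the list's value is -0.11.

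RB and the E2F factors, which take up the signal of the G1 kinases, were mostly lower by small amounts. Of 13 measured genes, 10 were lower, none was 2-fold different, and the median difference was -0.27. E2F7, a repressor among the E2F factors, was 1.97-fold lower, from 10.57 to 9.59. E2F3, an activator, differed by -0.58, and TFDP2, a dimerisation partner of the E2F factors, was 1.44-fold higher. RB1 itself was at 10.28 and 9.88, a difference of -0.40, and E2F1 was at 8.59 and 8.18, a difference of -0.41. The last 2 genes were chosen after their values were seen.

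Genes of the G1/S transition that E2F drives were lower in 23 of 25 measured cases, with a median of -0.42 or 1.34-fold. Of the 25, 1 was at least 2-fold lower and 7 at least 1.5-fold lower. MYBL2, a factor that hands the programme on to mitotic genes, was 2.21-fold lower, from 9.59 to 8.45. RRM2, which makes deoxynucleotides, was 1.92-fold lower and CDC45, of the replicative helicase, 1.78-fold. Against this, CDC6 and ORC1, which load that helicase at origins, were 1.13-fold and 1.10-fold higher, both chosen after their values were seen. Of 5 genes for later cyclins and CDK1, 4 were lower, with a median of -0.46: CCNF was 1.75-fold, CDK1 1.58-fold and CCNA2, the S phase partner of CDK2, 1.38-fold lower. CCNE2 belongs to the same E2F-driven class by textbook knowledge. Its difference of -1.21 was next to that of MYBL2, -1.15, from which it did not differ beyond the scatter between probe sets. MYBL2 was the lowest of the 25 genes, whose median was -0.42, and CCNE1, the other E cyclin, was at -0.31. The share of cells in each phase was not measured, and its part in these differences was not tested.

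**Figure D3:**
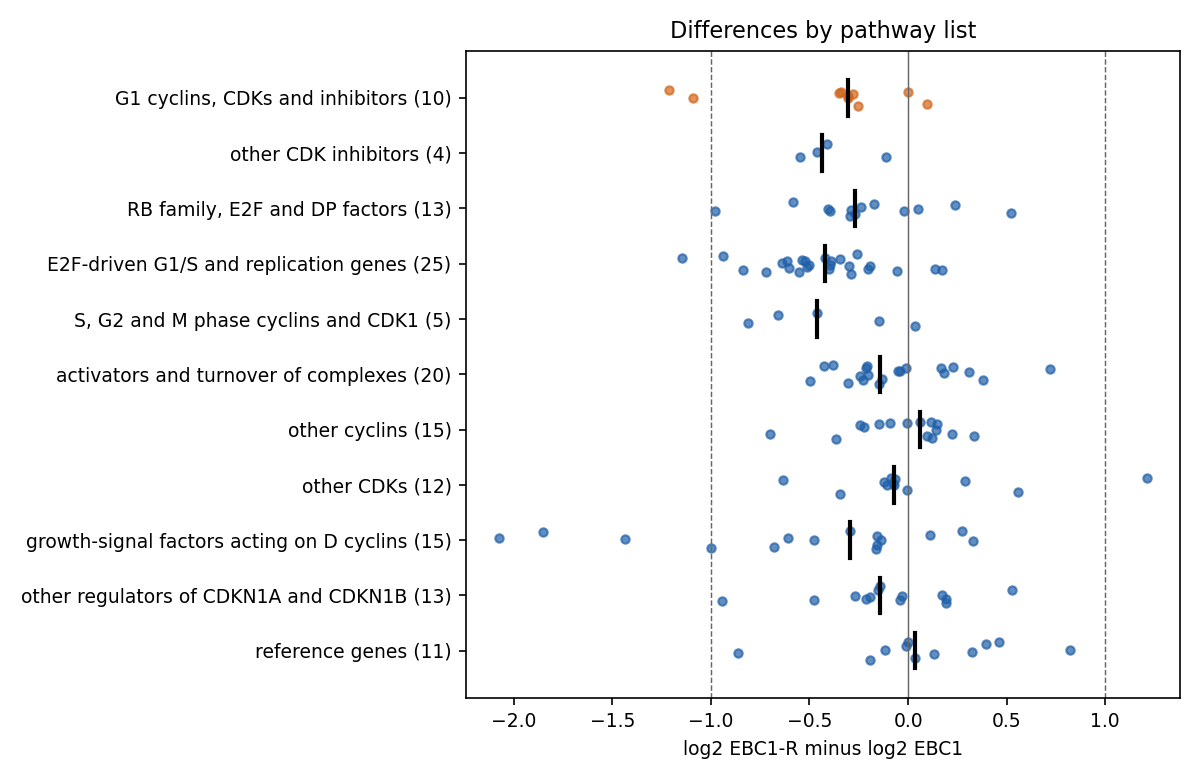
Difference of each gene (log2 EBC1-R minus log2 EBC1, horizontal axis) in the 10 genes of G1 control (orange) and 10 related lists (blue), with the number of genes measured in brackets, the list median as a black bar and dashed lines at 2-fold. Medians lie at -0.30 for the 10 genes, -0.42 for E2F-driven genes and 0.03 for reference genes.

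Genes that activate, modify or destroy the G1 complexes were more often lower than higher. Of 20 measured, 14 were lower and 6 higher, none 2-fold, and the median was -0.14. Over all genes 55.5% were lower and the median was -0.03. FBXO4, reported to direct D cyclin to the proteasome, was 1.65-fold higher, from 6.87 to 7.59. CDC25B, a phosphatase that activates CDKs, was 1.41-fold lower and WEE1, the kinase that opposes it, 1.34-fold lower. SKP2, the receptor that marks p27 for destruction, was at 9.20 and 9.15, a difference of -0.05 (chosen after its value was seen). Other cyclins had a median of 0.06 over 15 genes, with CCNJL 1.63-fold lower, CCNT1 1.29-fold lower and CCNG2 1.26-fold higher. These 15 leave out the G1 cyclins and the later cyclins, whose list with CDK1 had a median of -0.46. Other CDKs had a median of -0.07 over 12 genes, of which 9 were lower and 3 higher. CDK14, a cyclin Y kinase that lies on chromosome 7 between ABCB1 and CDK6, was 2.32-fold higher, from 6.97 to 8.18. CDK17 was 1.55-fold lower and CDK18 1.47-fold higher. CDK1, 1.58-fold lower, was counted with the later cyclins and not here. The medians of these lists did not show the small difference of the G1 kinases, but CDK1 and CDK17 were lower by more. A contrast with the G1 kinases depends on how the lists were drawn and was not tested.

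Factors that carry growth signals to the D cyclins were lower in 12 of 15 cases, some by far more than the cyclins. The median was -0.30 and 4 genes were at least 2-fold lower. ETV4 and ETV5, ETS factors that follow ERK activity, were 4.22-fold and 3.61-fold lower. FOSL1, a partner of JUN in AP-1, was 2.71-fold lower, from 11.50 to 10.07, and EGR1, an immediate early factor, was at the threshold of 2-fold, from 11.67 to 10.67. CCND1, with 1.27-fold, was lower by less than any of these 4. JUNB, ETS2 and STAT3, by contrast, were higher, by 1.21-fold, 1.08-fold and 1.26-fold (chosen after their values were seen).

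Of 13 regulators of CDKN1A and CDKN1B, 9 were lower and 4 higher, with a median of -0.14. Over all genes 55.5% were lower and the median was -0.03. With either level filter the median of these regulators was -0.04. Beside KLF6, FOXO4, of the forkhead factors that activate p27, was 1.44-fold higher and AKT1, the kinase that inhibits these factors, 1.39-fold lower. Their relatives moved less: FOXO1 differed by 0.17, FOXO3 by -0.21 and AKT2 by -0.03 (chosen after their values were seen).

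Neighbours on the chromosome were set beside each gene, 5 measured genes on either side in RefSeq order. The median of the 10 neighbours lay between -0.16 (CCND1) and 0.19 (CCNE2). Around CCNE2 on chromosome 8, 6 of 10 neighbours were higher: INTS8 next to it was 1.62-fold and CFAP418 1.74-fold higher, and NDUFAF6 on the other side differed by 0.07. Around CDKN1A on chromosome 6, 5 of 10 were lower and none differed 1.5-fold. SRSF3 and RAB44, adjacent to it, differed by -0.27 and 0.05. With 10 genes on either side of CDKN1A, 12 of 20 were lower, MAPK13 by 0.91 log2 units, and the median was -0.04. For CCNE2 the same window had 9 of 20 lower and a median of 0.05.

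On chromosome 11, 8 of the 10 neighbours of CCND1 were lower. MYEOV, the adjacent gene, was 3.68-fold lower, from 9.66 to 7.78, and ANO1, on the other side, was 1.84-fold lower from 6.54. With 10 genes on either side, 12 of 20 were lower and the median was -0.03. LTO1, which adjoins CCND1 on the side of ANO1, differed by 0.01 and FGF19 beyond it by -0.01. The next 7 genes, chosen like FGF19 after their values were seen, were all lower: FGF4 (-0.28), FGF3 (-0.36), ANO1 (-0.88), FADD (-0.53), PPFIA1 (-0.32), CTTN (-0.17) and SHANK2 (-0.83). FGF4, FGF3 and ANO1 had mean levels under the median of all genes. SHANK2-AS3, the gene after SHANK2 and chosen likewise, differed by 0.04. CDK6 shares chromosome 7 with ABCB1, the drug efflux pump named in the title of the study, which went from 5.37 to 12.65. Of 24 measured genes between them, 13 were lower, the median was -0.15, and CDK6 had a difference of -0.25. RBM48 and SAMD9 beside CDK6 differed by 0.22 and 0.27. CCND2 lies on the short arm of chromosome 12, where PARP11 and TIGAR on its 2 sides were 1.71-fold and 1.49-fold higher and FERRY3 1.60-fold higher. Of the 7 measured genes between FOXM1 and CCND2, 1 was lower, and the median was 0.24, while CCND2 itself was equal on both arrays. FOXM1, chosen after its value was seen, was lower, from 10.58 to 10.08, a difference of -0.51. With 10 genes on either side of CCND2, 8 of 20 were lower and the median was 0.08.

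CDKN1B lies further along chromosome 12, with 145 measured genes between it and CCND2. Its neighbours pointed both ways: MANSC1 differed by -2.07, BORCS5 was 1.55-fold lower and DUSP16, a phosphatase of MAP kinases, 1.79-fold higher. GPR19 and APOLD1 beside it differed by -0.20 and -0.58. CDK4 and CDK2 lie on the same chromosome with 65 measured genes between them, 47 of them lower, with a median of -0.12. Over all genes 55.5% were lower and the median was -0.03. Of the 65 genes, 0 were at least 1.5-fold lower and 2 at least 1.5-fold higher. Next to CDK4, EEF1AKMT3 was 1.72-fold and OS9 1.67-fold higher, as TSPAN31 was, and MARCHF9 differed by -0.47. DGKA, near CDK2, was 1.67-fold lower, and PMEL and RAB5B, adjacent to CDK2, differed by 0.27 and 0.22. Near CCND3, BYSL and TAF8 differed by -0.32 and 0.23 and TRERF1 was 1.62-fold lower. C19orf12 and URI1, on the sides of CCNE1, differed by 0.09 and 0.27, and no gene among its 10 neighbours reached 1.5-fold.

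**Figure D4:**
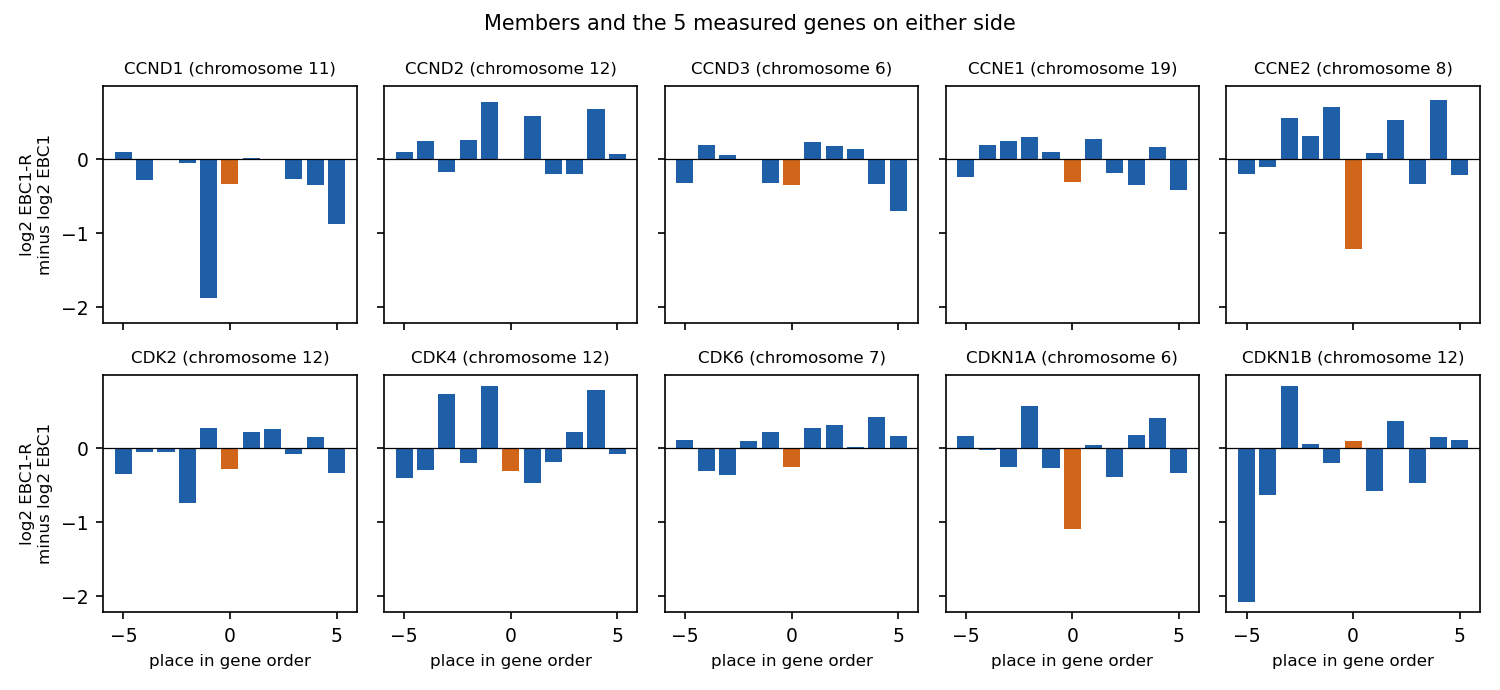
Difference (log2 EBC1-R minus log2 EBC1, vertical axis) of each of the 10 genes (orange, place 0) and of the 5 measured genes on either side in gene order (blue, horizontal axis). CCNE2 at -1.21 and CDKN1A at -1.09 stand among neighbours that lie between -0.38 and 0.80, whereas the bar beside CCND1 is MYEOV at -1.88.

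The lines were checked against markers of other cells. General epithelial markers were at 9.09 to 12.83 in EBC1 against 9.18 to 12.06 in EBC1-R. The keratins KRT19, KRT8 and KRT18 were 1.86-fold, 1.77-fold and 1.72-fold lower in EBC1-R. The rest of these markers moved little: CDH1 differed by 0.10, CLDN4 by 0.09 and EPCAM by -0.08 (chosen after their values were seen). Of 5 measured markers of squamous epithelium, including KRT5 and SOX2, none had a mean level at the median of all genes or above, with a range of 5.19 to 7.26 in EBC1. Leukocyte markers lay between 4.56 and 6.001 in EBC1 and 4.65 and 5.81 in EBC1-R, and fibroblast and endothelial markers between 4.54 and 7.64 in EBC1 and between 4.56 and 7.61 in EBC1-R. The 21 markers of these 3 cell types differed by -0.25 to 0.17, with none 1.5-fold different. Reference genes had a median of 0.03 over 11 genes but ranged from -0.86 (PPIA) to 0.82 (TFRC), wider than the differences of the 6 moderately lower G1 genes.

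**Figure D5:**
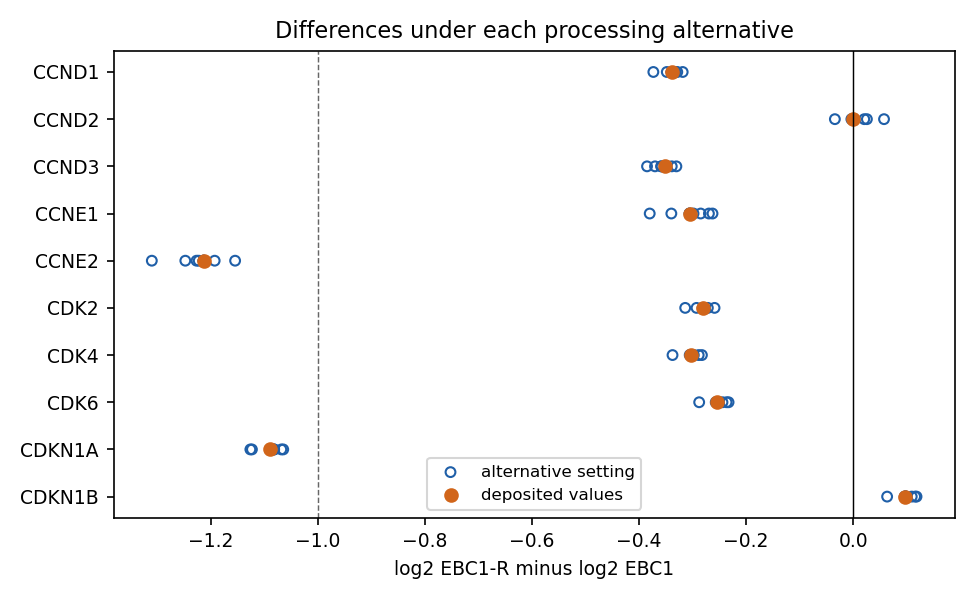
Difference of each gene (log2 EBC1-R minus log2 EBC1, horizontal axis) with the deposited values (filled) and under each processing alternative (open circles), with a dashed line at 2-fold lower. CCNE2 stays between -1.31 and -1.15 and CDKN1A between -1.13 and -1.06, while CCND2 scatters around 0.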

How the data were processed

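Total RNA (100 ng for each array) was labelled as biotinylated cDNA with a whole-transcript kit, per the labels' protocols. For each array the authors deposited a single value per probe set, read here as log2 intensity from its range, 4.21 to 14.2. No label states how background was corrected or how arrays were normalized. The array type in the labels' extraction protocol does not match the 28869 probe sets, which an annotation of a whole-transcript gene array names.

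Probe sets with 1 symbol (19310) were averaged per gene, and symbols were updated by gene identifier from RefSeq (GRCh38.p14), which also gave gene order and promoters. Differences were computed with Python 3.11.15, pandas 2.3.3 and numpy 2.4.6, the lowess trend with statsmodels 0.14.6, and the calculation was tested on simulated data. Alternatives covered scaling, offsets, probe sets, level filters, thresholds and neighbours.

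The 10 genes and the lists were chosen with earlier results of these data known, as were the promoter motifs. Named genes are those at least 2-fold different and up to 3 with the largest differences in each list, neighbours at least 1.5-fold different or adjacent, and extremes of markers and reference genes. Others are marked. Genes without a probe set of a single symbol were not used here. A further list of the design is not reported here.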

Additional observations from a re-analysis of the deposited data

How the results depend on the processing

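The 10 differences were recomputed with quantile normalization, median centring, removal of a lowess trend (span 0.2), a pseudocount of 16, subtraction of each array's 5th percentile with a floor of 16, the brightest probe set, probe sets naming several genes, both level filters, and relative to reference genes. Every difference moved by less than 0.16, the scatter between probe sets, in each of these. CCNE2 and CDKN1A were at least 2-fold lower in all of them, and no gene reached 1.5-fold higher. Some of these alternatives could not move the difference of a gene. Each of the 10 genes has a single probe set, and the probe sets naming several genes name none of the 10. A level filter keeps or drops a gene and leaves its value unchanged. The difference of CCND2 ranged from -0.03 to 0.06 and has no direction. CCND2 and CCNE1 were left out by both level filters, which kept 8 genes. With a threshold of 3-fold, 0 of the 10 genes were lower, as no difference reached it. Among 260 recomputed values, some of which could not move, 3 moved. They were that count and the median of the other CDK inhibitors, -0.11 under both level filters, which leave CDKN1C alone. No paired analysis was possible because each line has 1 array. That number limits the precision, and no alternative stands in for a second culture.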
